A study of Mus musculus with 6 samples.

Results

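The transcripts of 10 enzymes of the methionine cycle, of transsulfuration and of choline-derived methyl supply were examined in mouse liver: Bhmt, Bhmt2, Mthfd1, Mat1a, Gnmt, Pemt, Nnmt, Ahcy, Cbs and Cth. They were chosen by gene symbol for their place in the pathway, with earlier results of these data known. All 10 were found among the 48699 genes of the deposited table. Liver mRNA came from 3 control mice, homozygous for floxed alleles of both Fxr and Shp (Fxrfl/fl Shpfl/fl), and from 3 double knockout mice labelled as hepatocyte-specific fxr-/- shp-/-. Fxr (Nr1h4) encodes the bile acid receptor FXR, and Shp (Nr0b2) encodes a nuclear receptor that represses transcription. All 6 were C57BL/6 males aged 10 to 12 weeks and fasted for 8 to 10 hours overnight, and the column names of all 6 libraries carry the word chow. The Cre driver is not named in the sources used here, and in a hepatocyte-specific deletion the other liver cells keep both genes.

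The methionine cycle supplies the cell's methyl groups. Mat1a makes S-adenosylmethionine, methyltransferases such as Gnmt, Pemt and Nnmt spend it, and Ahcy splits the S-adenosylhomocysteine left behind into adenosine and homocysteine. Homocysteine is then either methylated back to methionine, in liver largely by Bhmt with betaine, the oxidation product of choline, or drained towards cysteine by Cbs and Cth. Pemt links the cycle to lipids, because it makes phosphatidylcholine by methylating phosphatidylethanolamine.

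None of the 10 transcripts passed the threshold between the groups. Values are FPKM, fragments per kilobase of transcript and library total, and the test was limma on log2(FPKM + 1) with Benjamini-Hochberg adjustment over 11810 genes at 0.05. By limma 0 of the 10 were called higher and 0 lower, against 0.169% and 0.144% of all genes tested, 0.313% in all. At an unadjusted p under 0.05 there were 3 of the 10, Bhmt, Bhmt2 and Pemt, against 14.9% of all genes. The authors' deposited table called 0 of the 10, against 4.58% of the 11844 genes it tested, with q-values from 0.0675 for Pemt to 0.988 for Gnmt. The log2 fold change, double knockout minus control, was positive in 5 and negative in 5, with a median of 0.07 against -0.01 over all genes tested. Control and knockout libraries did not overlap for 3 of the 10, Bhmt above and Ahcy and Pemt below, against 22.9% of all genes tested. That share is near the background.

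**Figure D1:**
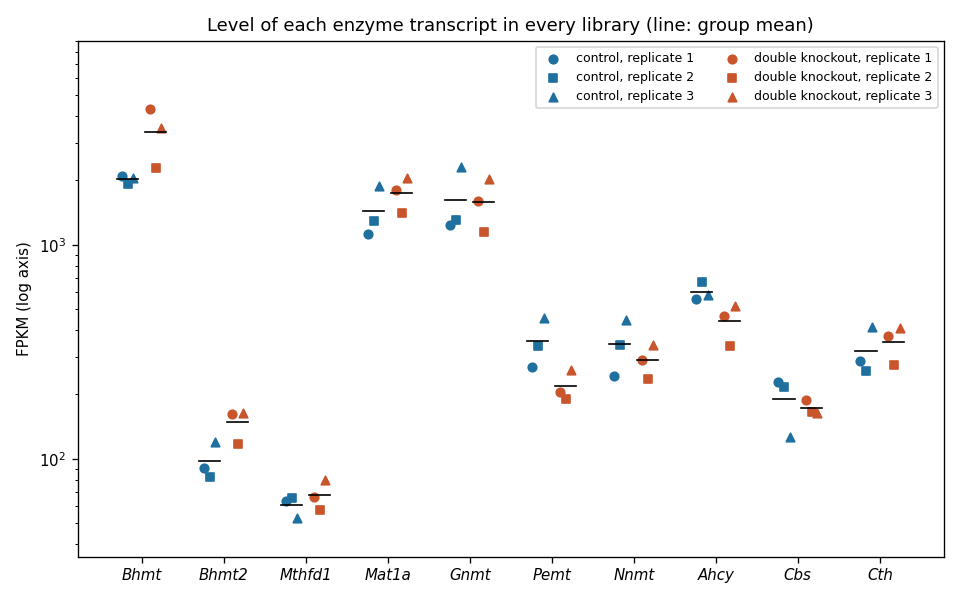
FPKM on a log axis for each of the 10 transcripts in each of the 6 libraries, with controls in blue, double knockouts in orange, a symbol for each replicate number and a line at the group mean. The knockout symbols lie above all control symbols for Bhmt and below them for Pemt and Ahcy, and the groups overlap in the other 7.

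The libraries themselves differed in ways that bear on these values. The deleted genes were low in all 3 knockouts: Nr0b2 measured 14.7 to 18.7 FPKM in control mice and 0.0734 to 0.293 FPKM in knockout mice, and Nr1h4 59.8 to 71.8 and 15.5 to 22.04 FPKM. From steps in the low values, library totals were estimated at 13.2 to 14.1 fragments, times 1e6. The summed FPKM of all genes ran from 702759 to 841745 in controls and from 610618 to 697877 in knockouts. Summed FPKM of 10 hepatocyte markers was 74204 to 92971 in controls and 43028 to 66285 in knockouts, with 9 of the 10 fold changes negative, 0 called and none at 0. For 10 Kupffer cell and macrophage markers the sums were 80.4 to 197 and 171 to 370.2 FPKM, with 10 of 10 fold changes positive, 1 called higher and none at 0. For 10 periportal hepatocyte markers they were 5099 to 6535 and 3116 to 5262 FPKM. Of these 3 had a positive fold change, the median was -0.81 and 0 were called. The sums of 10 cholangiocyte markers were 60.7 to 70.7 and 84.3 to 96.3 FPKM. Only 6 of them were tested, with 5 fold changes positive and 0 called. The sums of hepatocyte and cholangiocyte markers did not overlap between the groups. Those of macrophage, periportal, pericentral, sinusoidal endothelial, stellate, lymphocyte and erythroid markers did. The summed FPKM of all genes was itself lower in every knockout than in any control. Marker sums were not divided by it, so the hepatocyte gap is one of undivided FPKM and was not tested as a share of the library. In bulk liver, fewer cells of a type and less RNA per cell cannot be told apart, and the part of these shifts in the values below was not tested. Control replicate 3 stood apart: all 10 immediate-early genes looked at were highest there, with a sum of 787 FPKM against 56.2 to 179 FPKM in the other 5 libraries.

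As a level per transcript length, the 10 enzymes spanned a wide range in the controls. Bhmt was the highest, at 2029 ± 89.4 FPKM, and ranked 55 among all genes (SD, n = 3). Gnmt followed at 1622 ± 608 FPKM and Mat1a at 1434 ± 405 FPKM, and the control libraries of these top 3 overlapped from each to the next. Below them stood Ahcy (605 ± 60.0 FPKM), then Pemt, Nnmt and Cth, which overlapped with each neighbour at group means of 354, 344 and 319 FPKM. Cbs (191 ± 56.5 FPKM), Bhmt2 (97.4 ± 19.5 FPKM) and Mthfd1 (60.8 ± 6.72 FPKM) were the lowest, each apart from the next. In the knockouts Bhmt, at 3384 ± 1025 FPKM, was apart from Mat1a, the next below it. Pemt ranked 5 of the 10 in controls and 7 in knockouts, where its libraries overlapped those of Nnmt just above it. Together the 10 made up 0.882%, 0.823% and 1.01% of the FPKM sum in the control libraries and 1.38%, 1.02% and 1.37% in the knockouts. The knockout shares were higher than the controls', by little in double knockout replicate 2. The FPKM sums of the 10 themselves overlapped, at 6201, 6497 and 8471 in controls and 9479, 6237 and 9536 in knockouts. The FPKM sum of all genes, by which these shares divide, was lower in every knockout than in any control. At the estimated depth even Mthfd1 rested on about 2363 fragments in its lowest library, a counting error of 2.06%, far below the spread between mice.

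The enzymes that rebuild methionine come first, and among them Bhmt showed the highest level and a value in every knockout above every control. Bhmt encodes betaine-homocysteine methyltransferase, which moves a methyl group from betaine to homocysteine. Its gene lies on chromosome 13, 93616675 to 93637961, on the minus strand (GRCm38, GENCODE M21). Its paralog Bhmt2, which uses S-methylmethionine as methyl donor, lies 17758 bases away at 93655720 to 93674302 on the same strand. Bhmt2 in turn starts head to head with Dmgdh, the dehydrogenase that degrades the dimethylglycine left by the Bhmt reaction. The stretch between the annotated starts of Bhmt2 and Dmgdh is shown because both genes begin at its ends. It covers chr13:93674303-93674432 on the minus strand of GRCm38, 130 bases with a GC content of 70.8%, against a median of 52.4% over the 250 bases before all 32851 starts in the RefSeq promoter table (GRCm38.p6):
Bhmt2-Dmgdh: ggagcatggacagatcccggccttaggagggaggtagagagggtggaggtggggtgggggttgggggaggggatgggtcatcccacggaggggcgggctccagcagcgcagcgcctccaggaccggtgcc

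Bhmt was at 2102, 1929 and 2056 FPKM in control mice 1 to 3 and at 4329, 2294 and 3529 FPKM in knockout mice 1 to 3. The 3 controls lay close together and the knockouts spread widely, with double knockout replicate 2 little above the controls. The knockout mean was 1.67-fold that of the controls (log2 fold change 0.69, SE 0.28, 95% interval 0.05 to 1.33, limma adjusted p = 0.312). Double knockout replicate 2 was also the library with the lowest hepatocyte marker sum and the highest macrophage marker sum. Bhmt2 measured 90.2, 82.4 and 119 FPKM in the control mice against 163, 118 and 164 FPKM in the knockout mice. Its groups overlapped only because control replicate 3 lay just above double knockout replicate 2. The knockout mean was 1.52-fold the control mean (log2 fold change 0.60, SE 0.21, 95% interval 0.12 to 1.09, limma adjusted p = 0.263). With weights per library, Bhmt2 passed the threshold, at a log2 fold change of 0.78 (limma adjusted p = 0.0423). That setting called 563 of 11810 genes, against 37 as reported. Over all alternatives the limma adjusted p of Bhmt2 ran from 0.0423 to 0.593. How reads shared between the 2 paralogs were assigned is not named in the sources used here. The antisense gene Gm15622 inside Bhmt was listed at 0 in every library.

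The FPKM ratio of Bhmt to Bhmt2, which does not depend on the scaling of a library, was 23.3, 23.4 and 17.2 in controls and 26.6, 19.5 and 21.5 in knockouts. The ranges of the groups overlapped for this pair of paralogs. Dmgdh, named here for its position after its values were seen, measured 173 to 190.5 FPKM in the control mice and 456, 224 and 284 FPKM in the knockout mice (log2 fold change 0.75, SE 0.26, limma adjusted p = 0.264). Its knockout values were ordered like those of Bhmt, with replicate 1 highest and replicate 2 lowest. The ratio of Bhmt to Dmgdh was 11.0, 10.5 and 11.9 in controls and 9.50, 10.3 and 12.4 in knockouts, again overlapping. Jmy, the protein-coding neighbour beyond Bhmt, an actin nucleator, was at 2.80 to 3.16 FPKM in control mice and 3.26 to 3.53 FPKM in knockout mice (log2 fold change 0.17, SE 0.14, limma adjusted p = 0.590).

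Of the enzymes with an entry in the promoter table, Bhmt had the most copies of the nuclear receptor core motif AGGTCA before its start. FXR binds paired copies of this motif, as do many other nuclear receptors. On either strand, 14.02% of the 32851 windows of 250 bases before a RefSeq start held the letters AGGTCA, and 0.131% held 3 or more. Of the 10 enzymes 7 had an entry in that table, and 4 of these held the motif: Bhmt with 3 copies and Ahcy, Gnmt and Mthfd1 with 1 each. Bhmt2, Cbs and both Pemt starts held none. The 3 copies of Bhmt are shown with 7 bases on each side, the motif in capitals, at 234, 72 and 47 bases before the RefSeq start. All are on the minus strand at chr13:93637980-93637999, chr13:93637818-93637837 and chr13:93637793-93637812 (GRCm38.p6), and GENCODE's longer Bhmt transcript already covers sites 2 and 3:
Bhmt site 1: cagatgtAGGTCAtgcagtt
Bhmt site 2: cagatcaAGGTCAgaggcct
Bhmt site 3: tggacaaAGGTCAgtgtgca
No stretch shown holds a second exact copy of the motif on either strand, so none shows an exact pair. These are matches of letters, and no binding was measured here.

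By the smallest distance between centred log2(FPKM + 1) values over the 6 libraries, the 3 genes nearest to Bhmt2, the enzyme with the smallest limma p, were Smco4, Hsd3b3 and Stat3. Their root mean square distances were 0.07, 0.08 and 0.08 on the log2 scale, among 10494 genes averaging at least 1 FPKM. Mat1a ranked 131 and Bhmt 157 in the same order, while Pemt ranked 9426. None of the 3 nearest genes was called (limma adjusted p = 0.234, 0.252 and 0.202).

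Mthfd1, the trifunctional enzyme that prepares folate-bound carbon units in the cytosol, differed little. Its gene is on chromosome 12 (76255298 to 76319803, plus strand). It was at 63.9, 65.5 and 53.1 FPKM in control mice and 66.2, 57.6 and 79.4 FPKM in knockout mice, and the groups overlapped. The log2 fold change was 0.15 (SE 0.17, 95% interval -0.25 to 0.55, limma adjusted p = 0.715), and ran from 0.028 without double knockout replicate 3 to 0.26 without double knockout replicate 2. Of the other folate genes, 20 of 25 were tested and 0 were called by limma in either direction. The unadjusted limma p was under 0.05 for 1 of the 20, against 14.9% of all genes tested. Their median log2 fold change was -0.12. The authors' deposited table called 4.58% of the genes it tested and 0 of this folate list. Its most abundant members were Aldh1l1, which oxidises 10-formyltetrahydrofolate, at 317 to 358 FPKM in control mice and 298 to 568 FPKM in knockout mice, and Ftcd, of histidine breakdown, at 130 to 187 and 138 to 173 FPKM. Mtr, which methylates homocysteine with folate instead of betaine, belongs to the methionine and homocysteine list and was named after its values were seen. It was scarce, at 0.452, 0.391 and 0.545 FPKM in control mice and 0.788, 1.17 and 1.23 FPKM in knockout mice (log2 fold change 0.49, SE 0.16, limma adjusted p = 0.248). These Mtr groups did not overlap, as in 22.9% of all genes tested. The authors' deposited table called Mtr higher (q = 0.0216). Its control mean of 0.463 FPKM lay below the filter of 0.5 FPKM, so Mtr entered the limma test only through its knockout values.

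**Figure D2:**
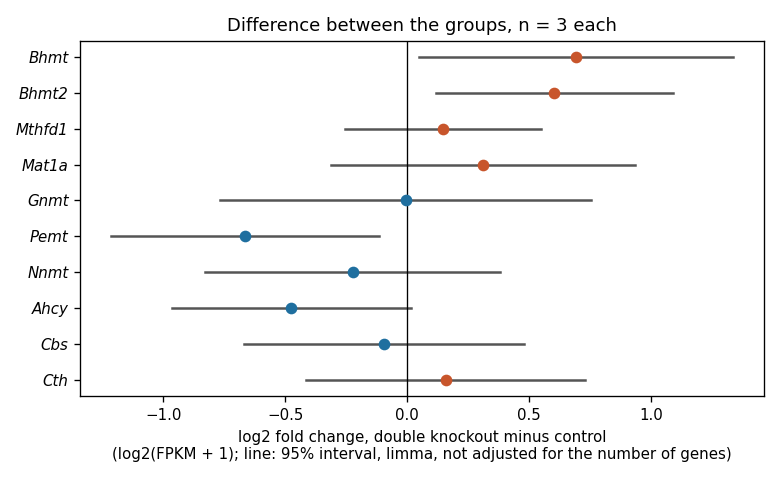
Log2 fold change of each enzyme (double knockout minus control, on log2(FPKM + 1)), with limma's 95% interval as a line, n = 3 in each group and no adjustment for the number of genes. The intervals of Bhmt and Bhmt2 lie above 0 and that of Pemt below 0, while the other 7 include 0.

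Mat1a, the liver isoform that makes S-adenosylmethionine, is on chromosome 14 (41105035 to 41124412, plus strand). Its values were 1118, 1292 and 1891 FPKM in control mice and 1797, 1416 and 2049 FPKM in knockout mice. Control replicate 3 lay within the knockout range and the other controls below it. The log2 fold change was 0.31 (SE 0.27, 95% interval -0.31 to 0.93, limma adjusted p = 0.609) and ran from 0.15 without control replicate 1 to 0.53 without control replicate 3 (limma adjusted p = 0.844 and 0.231). Mat2a, the form of other tissues, measured 26.8 to 35.3 FPKM in control mice and 23.2 to 29.6 FPKM in knockout mice (log2 fold change -0.27, limma adjusted p = 0.470), far below Mat1a in both groups; it was named after its values were seen.

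Of the enzymes that spend the methyl group, Pemt was lower in each knockout than in each control, without passing the threshold. Pemt (chromosome 11, 59970614 to 60046489, minus strand) was at 269, 336 and 457 FPKM in control mice and 206, 191 and 261 FPKM in knockout mice. The gap was narrow, between control replicate 1 and double knockout replicate 3, and the controls spread more than the knockouts. The control mean was 1.61-fold that of the knockouts (log2 fold change -0.66, SE 0.23, 95% interval -1.21 to -0.12, limma adjusted p = 0.270).

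Gnmt, glycine N-methyltransferase, which takes up excess S-adenosylmethionine, lies on chromosome 17 (46725664 to 46729168, minus strand). It was at 1239, 1304 and 2323 FPKM in control mice and 1596, 1146 and 2020 FPKM in knockout mice, so both the highest and the next highest values came from replicates numbered 3. The group means nearly coincided (log2 fold change -0.01, SE 0.33, limma adjusted p = 0.996). However, the 95% interval ran from -0.77 to 0.75, so differences within that range in either direction were not excluded. Its sign turned under 6 of 15 alternatives. Nnmt, nicotinamide N-methyltransferase (chromosome 9, 48591877 to 48605153, minus strand), was at 243, 342 and 448 FPKM in control mice and 289, 236 and 342 FPKM in knockout mice. The groups overlapped (log2 fold change -0.22, SE 0.26, 95% interval -0.83 to 0.38, limma adjusted p = 0.711), and the value ran from -0.45 without control replicate 1 to -0.01 without control replicate 3. Relative to Pemt within a library, Nnmt was at 0.903, 1.02 and 0.980 in controls and 1.40, 1.23 and 1.31 in knockouts, and Gnmt at 4.597, 3.89 and 5.08 against 7.74, 5.99 and 7.73. Both ratios to Pemt were therefore higher in each knockout than in any control, although neither Gnmt nor Nnmt itself separated the groups.

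A list of 16 other genes held further methyltransferases and Gatm, an amidinotransferase. Of these 15 were tested, with 2 at an unadjusted limma p under 0.05, against 14.9% of all genes tested. By limma 0 of the 15 were called, with a median log2 fold change of -0.06. Mettl7b, a membrane methyltransferase and the most abundant of them, was at 556 to 910 FPKM in control mice and 504 to 564 FPKM in knockout mice. The authors' deposited table called 2 of these, against 4.58% of all genes it tested, and both are named here after their values were seen. Dnmt3a, a de novo DNA methyltransferase, was called higher (q = 0.00121), at 1.41, 1.120 and 2.10 FPKM in control mice and 2.44, 3.52 and 5.04 FPKM in knockout mice (limma adjusted p = 0.203). Inmt, which methylates indolamines, was called lower there (q = 0.0402), at 242, 365 and 418 FPKM in control mice and 155, 106 and 319 FPKM in knockout mice, where the groups overlapped (limma adjusted p = 0.340). In the nicotinamide and NAD list, 12 of 12 were tested and 0 called by limma. At an unadjusted limma p under 0.05 there was 1, against 14.9% of all genes tested. In the list 11 of 12 fold changes were negative, with a median of -0.16 against -0.01 over all genes tested. With equal FPKM sums the median of all genes moved to 0.16, and the signs of this list were not looked at there. Its most abundant members were Aox3, an aldehyde oxidase, at 67.8 to 148 FPKM in control mice and 46.7 to 96.6 FPKM in knockout mice, and Qprt, of NAD synthesis from quinolinate, at 71.4 to 89.9 and 69.2 to 85.4 FPKM.

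Ahcy, S-adenosylhomocysteine hydrolase (chromosome 2, 155059310 to 155074497, minus strand), was also lower in each knockout than in each control. It was at 559, 673 and 583 FPKM in control mice and 467, 338 and 516 FPKM in knockout mice. The control mean was 1.37-fold that of the knockouts (log2 fold change -0.48, SE 0.21, 95% interval -0.96 to 0.01, limma adjusted p = 0.345). Double knockout replicate 2 was the lowest, and without it the log2 fold change was -0.30. An antisense gene that overlaps the start of Ahcy, Gm45609, was at 0.486 to 1.67 FPKM in the same libraries in which Ahcy was at 338 to 673 FPKM. Adk, the kinase that clears the adenosine released by Ahcy, measured 567 to 674 FPKM in control mice and 455 to 596 FPKM in knockout mice (log2 fold change -0.21, limma adjusted p = 0.615).

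The ratios within libraries set these enzymes against each other without a scaling factor, and are descriptions of pairs chosen after their values were seen. Bhmt relative to Ahcy was 3.76, 2.87 and 3.53 in controls and 9.28, 6.78 and 6.84 in knockouts, a 2.25-fold difference in the mean. Relative to Pemt, Bhmt was 7.80, 5.75 and 4.50 in controls and 21, 12.0 and 13.5 in knockouts, 2.58-fold. Every knockout lay above every control in both ratios, which follows from the values of the single enzymes and adds nothing to them. Mat1a relative to Ahcy was 2.00, 1.92 and 3.24 in controls and 3.85, 4.18 and 3.97 in knockouts, with control replicate 3 nearest to the knockouts. Mat1a relative to Gnmt was 0.903, 0.991 and 0.814 in controls and 1.13, 1.23 and 1.01 in knockouts, apart by a narrow gap. Bhmt relative to Mat1a was 1.88, 1.49 and 1.09 in controls and 2.41, 1.62 and 1.72 in knockouts, and the groups overlapped.

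**Figure D3:**
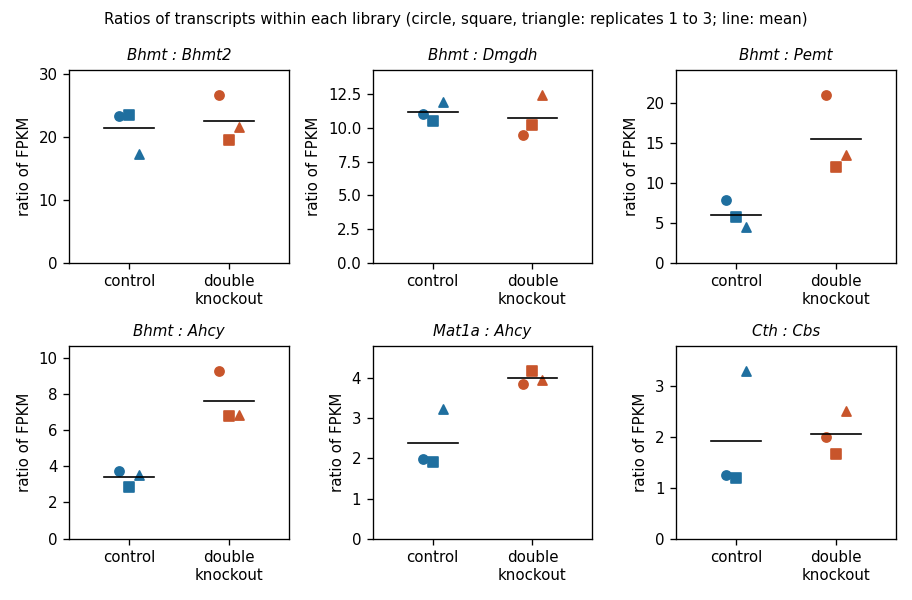
Ratios of FPKM between 2 transcripts within each library, 6 pairs, with axes from 0, controls in blue, double knockouts in orange and a line at the mean. The groups are apart for Bhmt : Pemt, Bhmt : Ahcy and Mat1a : Ahcy and overlap for Bhmt : Bhmt2, Bhmt : Dmgdh and Cth : Cbs.

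Neither transsulfuration enzyme differed beyond the spread between mice. Cbs, cystathionine beta-synthase, which joins homocysteine to serine, is on chromosome 17 (31608894 to 31637238, minus strand). It was at 229.7, 217 and 126 FPKM in control mice and 189, 166 and 165 FPKM in knockout mice, with the highest and the lowest value both among the controls. The log2 fold change was -0.10 (SE 0.25, 95% interval -0.67 to 0.48, limma adjusted p = 0.882), and ran from -0.37 without control replicate 3 (limma adjusted p = 0.191) to 0.061 without control replicate 1. Cth, cystathionine gamma-lyase, which releases cysteine (chromosome 3, 157894248 to 157925077, minus strand), was at 286, 257 and 415 FPKM in control mice and 376, 274 and 410.5 FPKM in knockout mice. The log2 fold change was 0.16 (SE 0.25, 95% interval -0.42 to 0.73, limma adjusted p = 0.793), and ran from 0.017 without control replicate 2 to 0.36 without control replicate 3. In control replicate 3 Cbs was lowest and Cth highest of the 6 libraries, and the ratio of Cth to Cbs was 3.28 there. It was 1.24 and 1.18 in the other controls and 1.99, 1.65 and 2.49 in the knockouts. Without that library the knockouts would lie above the controls in this ratio, and with it the groups overlap.

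The methionine and homocysteine list holds the other genes of the cycle, with Mtr, Mat2a and Adk, and those of cysteine use. All 18 of its genes were tested, with 3 at an unadjusted limma p under 0.05, Mtr among them, against 14.9% of all genes tested. By limma 0 of the 18 were called, with a median log2 fold change of -0.11. The most abundant were Cdo1, cysteine dioxygenase, at 1214 to 1872 FPKM in control mice and 1178 to 1553 FPKM in knockout mice, and Adk. Csad, which makes hypotaurine for taurine synthesis and was named after its values were seen, stood out. It was at 66.6, 86.8 and 49.2 FPKM in control mice and 228, 215 and 139.7 FPKM in knockout mice, well apart (log2 fold change 1.51, SE 0.27, limma adjusted p = 0.0860). In the authors' deposited table Csad was called higher (q = 0.00121). Taurine is the main partner of bile acids in mouse liver, where the conjugates are formed. Gss, glutathione synthetase, named in the same way, was at 34.9, 40.9 and 45.5 FPKM in control mice and 27.5, 23.2 and 28.8 FPKM in knockout mice (log2 fold change -0.59, SE 0.16, limma adjusted p = 0.190).

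In the list of choline oxidation and phosphatidylcholine synthesis, 22 of 23 genes were tested and 0 called by limma, with 11 fold changes positive, 11 negative and a median of 0.01. At an unadjusted p under 0.05 there were 9 of the 22, against 14.9% of all genes tested, and 12 did not overlap between the groups, against 22.9%. The list was chosen with earlier results of these data known, so its excess over these shares is not a test of the pathway. It also holds genes of the ethanolamine branch, such as Etnk2 and Pcyt2. The most abundant were Lcat, which esterifies plasma cholesterol with a fatty acid from phosphatidylcholine, at 318 to 381 FPKM in control mice and 260 to 308 FPKM in knockout mice, and Aldh7a1, which oxidises betaine aldehyde, at 271 to 288 and 236 to 269 FPKM. Other genes of the list were named after their values were seen. Chpt1, which completes phosphatidylcholine from CDP-choline, was at 135, 135 and 145 FPKM in control mice and 111, 84.9 and 93.2 FPKM in knockout mice (log2 fold change -0.53, limma adjusted p = 0.209). Etnk2, an ethanolamine kinase, was at 140, 136 and 180 FPKM in control mice and 75.5, 48.9 and 110 FPKM in knockout mice (log2 fold change -1.02, SE 0.29, limma adjusted p = 0.200), and was called lower in the authors' deposited table (q = 0.00319). Gpcpd1, which hydrolyses glycerophosphocholine, a store of choline, was at 42.5, 34.6 and 101 FPKM in control mice and 96.6, 98.2 and 144 FPKM in knockout mice (log2 fold change 1.05, limma adjusted p = 0.290). Control replicate 3 fell among the knockouts for Gpcpd1, which the authors' deposited table called higher (q = 0.0216).

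**Figure D4:**
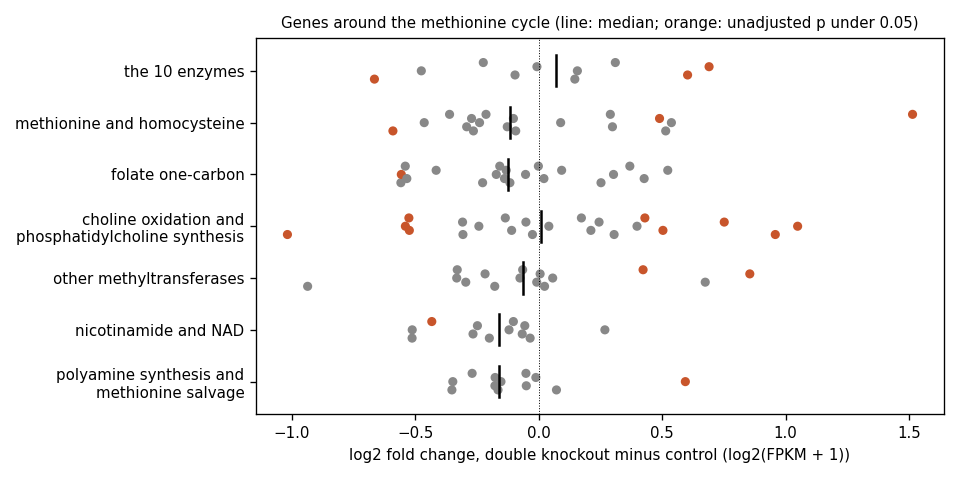
Log2 fold change (double knockout minus control) of the 10 enzymes and of the 99 tested genes of the 6 lists around them, a point for each gene, orange where the unadjusted limma p was under 0.05 and with a line at each list's median. The medians lie between -0.16 and 0.07, and no gene passed the adjusted threshold.

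The direction of 7 of the 10 enzymes, Bhmt, Bhmt2, Mat1a, Mthfd1, Cth, Ahcy and Pemt, was the same under all 15 alternatives. That of Gnmt, Cbs and Nnmt was not. Among the alternatives, a changed filter or a replicate block cannot alter a fold change, so the direction was fixed in advance there. Leaving out a library moved Bhmt between 0.49 and 0.95, Bhmt2 between 0.49 and 0.76, Ahcy between -0.60 and -0.30 and Pemt between -0.84 and -0.46 on the log2 scale. Rescaling every library to the same FPKM sum moved the median of all genes to 0.16. Ahcy was at -0.25 with equal sums and at -0.17 with quantile normalization, against -0.48 as reported. Relative to the median with equal sums, Bhmt was at 0.75, Bhmt2 at 0.66, Ahcy at -0.42 and Pemt at -0.61. Of the 37 genes called over the whole table, 54.1% were higher in the knockouts, and 74.3% of 74 with equal sums.

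**Figure D5:**
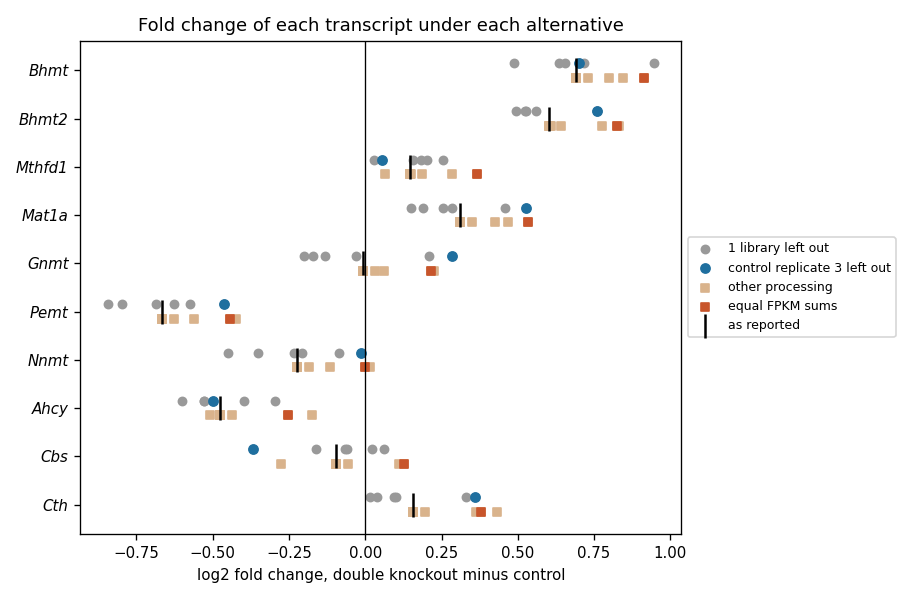
Log2 fold change of each enzyme (double knockout minus control) as reported (black bar), with 1 library left out (circles, control replicate 3 in blue) and under other processing (squares, equal FPKM sums in orange). Bhmt runs from 0.49 to 0.95, Bhmt2 from 0.49 to 0.83, Ahcy from -0.60 to -0.17 and Pemt from -0.84 to -0.43, while the points of Gnmt, Cbs and Nnmt fall on both sides of 0.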

How the data were processed

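The submitters' processing notes list STAR 2.4.2a, Cuffdiff 2.2.1, Trimmomatic, bcl2fastq 2.17.1.14 and, last, Picard 1.119, with GRCm38 (mm10) as the genome. Their roles and the annotation are not described in the sources used here. Libraries came from 1 µg of RNA with a stranded mRNA kit, per the labels' protocols. The authors deposited FPKM per gene and library, and a comparison with p-values and q-values, per the file headers. FPKM divides by length and by a library total, so abundant transcripts shift the others.

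Groups and replicate numbers come from the sample titles. Whether replicates were separate litters or days is not stated, so p-values measure the spread between these samples. Genes averaging at least 0.5 FPKM entered limma 3.58.1 (R 4.3.3) on log2(FPKM + 1), its moderated test following the mean-variance trend; all 10 enzymes passed. The fit was tested on simulated data. A fold change on this scale understates low genes. Values are means ± SD. With 3 against 3 an exact permutation p cannot go below 0.1. Depth was estimated from the smallest FPKM steps of genes over 1500 bases with 1 transcript. Coordinates are GENCODE M21. The enzymes and lists were chosen with earlier results of these data known. The naming rule was every enzyme, the deleted genes, the 2 most abundant genes of a list without calls, and the 3 genes nearest to the enzyme with the smallest p; others are marked, and 1 gene this rule would name is not reported here. Alternatives were pseudocounts of 0.1 and 0.25, no filter or 2 FPKM, 3 scalings, library weights, a replicate block and leaving out each library.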

Additional observations from a re-analysis of the deposited data

How the results depend on the processing

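Of 150 alternative values for the 10 enzymes, 138 kept their direction and their side of the threshold. Of the rest, 11 changed sign and 1 (Bhmt2 with library weights) passed it. A changed filter or a replicate block cannot alter the fold change of an enzyme, so the direction was fixed in advance there. Gnmt (-0.01 as reported) was 0.22 with equal FPKM sums, 0.033 with median-ratio scaling, 0.061 with quantile normalization and 0.23 with library weights; with a library left out it ran from -0.20 to 0.28, positive when control replicate 3 (0.28) or double knockout replicate 2 (0.21) was absent. Cbs (-0.10) was 0.13 with equal sums, 0.11 with quantile normalization, and ran from -0.37 to 0.061 with a library left out, positive when control replicate 1 (0.061) or 2 (0.021) was absent. Nnmt (-0.22) was 0.015 with quantile normalization. The cause was not tested. Enzymes called higher numbered 1 with library weights and 0 otherwise, and 0 were called lower under any alternative run. Over all genes, 37 were called, 2 without a filter, 74 with equal sums and 563 with library weights. Leaving out a library gave 2 to 242, with 242 without control replicate 3 and at most 6 without any other.

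With the replicate number as a block, 50 genes and 0 of the 10 enzymes were called. Same-numbered libraries deviated together with correlations of 0.22, -0.08 and 0.30, and control replicate 2 was closest to double knockout replicate 1 (0.25). So few values cannot tell whether same-numbered samples share a litter or a day, which is not stated. With 3 mice a group, limma's SE had a median of 0.25 over the 10 enzymes, which limits what differences could be detected.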

Other observations

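Polyamine synthesis and methionine salvage also draw on S-adenosylmethionine. In that list 12 of 12 genes were tested and 0 called by limma. At an unadjusted limma p under 0.05 there was 1, against 14.9% of all genes tested. In the list 10 of 12 fold changes were negative, with a median log2 fold change of -0.16 against -0.01 over all genes. As for the nicotinamide and NAD list, these signs were not looked at with equal FPKM sums. The authors' deposited table called 4.58% of the genes it tested and 0 of this list. The most abundant were Adi1, a dioxygenase of the salvage route, at 116 to 139 FPKM in control mice and 104 to 152 FPKM in knockout mice, and Sat1, which acetylates polyamines for export, at 42.4 to 99.1 and 50.7 to 82.0 FPKM. Amd1, which decarboxylates S-adenosylmethionine for this route, was at 8.75, 11.1 and 8.20 FPKM in control mice and 7.93, 6.78 and 6.61 FPKM in knockout mice (limma adjusted p = 0.369). Smox, spermine oxidase, was at 1.11, 1.03 and 1.19 FPKM in control mice and 2.00, 3.39 and 1.45 FPKM in knockout mice (limma adjusted p = 0.299). Amd1 and Smox were named after their values were seen, and neither overlapped between the groups. In this list 1 gene lay above and 2 lay below without overlap, against 22.9% of all genes tested.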
